A study of Danio rerio with 6 samples.

Results

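Cell cycle and replication genes were examined in the transcriptome of injured zebrafish kidney tubules after treatment with UPHD25. The set holds 7 genes of the 32520 in the count table, taken by Ensembl identifier: pcna (ENSDARG00000054155), mki67 (ENSDARG00000091150), top2a (ENSDARG00000024488), cdk1 (ENSDARG00000087554), ccnb1 (ENSDARG00000051923), ccna2 (ENSDARG00000011094) and mcm5 (ENSDARG00000019507). They were picked because proliferation of renal tubular epithelial cells after injury is measured in this study by imaging, so the question asked of the RNA is whether transcripts of the division machinery were higher after treatment. Of the 7 genes, 6 passed the filter on low counts and were tested, and cdk1 did not.

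Both groups were *Tg(PT:EGFP)* larvae, in which a transgene marks the proximal tubule green, and in both acute kidney injury was caused by injecting gentamicin at 3 days post fertilisation (gent-AKI). At 2 days post injury, gent-AKI+UPHD25 larvae received 1 μM UPHD25, a methyl ester prodrug of the histone deacetylase inhibitor PTBA, in 1% DMSO, and gent-AKI+DMSO larvae received 1% DMSO alone, each for 24 h. Green pronephros was dissected by hand from pools of 100 larvae, and its polyadenylated RNA was sequenced in 3 libraries per group, numbered as replicates 1 to 3. No uninjured group is among the 6 libraries, so the levels below are all from injured larvae.

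A cell that re-enters the cycle copies its DNA in S phase and parts the copies in mitosis, and each step needs proteins that resting cells make little of. In S phase the MCM helicase, to which Mcm5 belongs, unwinds DNA and Pcna forms the ring that holds the polymerases on it. Cyclin A2 then cyclin B1, encoded by ccna2 and ccnb1, activate the kinase Cdk1, which drives entry into mitosis, while Top2a untangles the copied chromosomes and Ki-67, the product of mki67, coats them. Differentiated tubule cells are mostly out of the cycle, and division of tubule epithelium is a known part of kidney repair.

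The libraries held 10781071 to 23328700 counts on genes in gent-AKI+UPHD25 and 11851159 to 30750026 in gent-AKI+DMSO, and levels are given as CPM, counts scaled to a common library size with edgeR's TMM factors, which correct for RNA composition. The detection floor, set at 3 counts, lay between 0.10 and 0.289 CPM in these libraries. The factors lay between 0.903 and 1.00 in the other 5 libraries, and the factor of UPHD25 replicate 3 was 1.21. Proximal tubule markers were present: 8 of the 9 matched marker identifiers passed the filter, hnf4a being the exception at no more than 1 count in any library, and their summed level was 282 to 435 CPM after UPHD25 and 332 to 473 CPM after DMSO. That sum includes cdh17, used in this study as a marker of the renal tubule, at 59.3 to 149 CPM, and 2 dab2 identifiers. Markers of other tissues were present in every library. Skeletal muscle markers summed to 4573 to 8492 CPM after UPHD25 and 10500 to 11275 CPM after DMSO, liver markers to 4108 to 9753 CPM after UPHD25 and 8872 to 13897 CPM after DMSO, and exocrine pancreas markers to 1350 to 4449 CPM after UPHD25 and 4616 to 7321 CPM after DMSO.

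For none of the 6 tested genes did the difference between UPHD25 and DMSO pass the test. Each had a log2 fold change above 0, between 0.09 for top2a and 0.42 for mki67, and for each the UPHD25 and DMSO libraries overlapped. The quasi-likelihood test of edgeR, with p-values adjusted by the Benjamini-Hochberg method over all 17497 genes tested, gave 0 of the 6 an adjusted p under 0.05, and 0 of the 6 had an unadjusted p under 0.05. The same test called 0% of all genes at the adjusted threshold, and 12.5% of them had an unadjusted p under 0.05. DESeq2's Wald test, which called 3.46% of the genes it gave an adjusted p, also called 0 of the 6. A log2 fold change above 0 was found for 52.7% of all tested genes, and groups that did not overlap for 17.8%. In pooled tissue, a difference in the number of cycling cells and one in RNA per cycling cell cannot be told apart.

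Among the replication genes, pcna had 208, 238 and 165 CPM in UPHD25 replicates 1, 2 and 3, against 206, 144 and 182 CPM in DMSO replicates 1, 2 and 3. The highest library was a treated one, but UPHD25 replicate 3 lay below DMSO replicates 1 and 3, so the groups overlapped. The mean was 204 ± 36.6 CPM after UPHD25 and 177 ± 31.03 CPM after DMSO (SD, n = 3 each), a difference of 26.05 CPM, which is within the spread of either group (two-sided exact permutation test, p = 0.4, where 3 libraries against 3 allow no p under 0.1). On the log2 scale the fold change was 0.20 with a standard error of 0.22 (adjusted p = 0.808 in edgeR), and the 95% interval ran from 0.808-fold to 1.63-fold.

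For mcm5 the levels were 84.9, 62.6 and 84.5 CPM in UPHD25 replicates 1, 2 and 3, and 81.5, 50.5 and 82.6 CPM in DMSO replicates 1, 2 and 3. Both replicate 2 libraries were low, the treated one less so, and the other 4 libraries stood within a few CPM of one another. Its log2 fold change of 0.11 was the smallest but one (standard error 0.24, adjusted p = 0.910 in edgeR), with a 95% interval from 0.737-fold to 1.59-fold.

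Of the genes of late S phase and mitosis, mki67 had the largest log2 fold change, 0.42, and also the widest spread after UPHD25. It stood at 51.9, 128 and 88.0 CPM in UPHD25 replicates 1, 2 and 3, against 54.4, 47.8 and 97.4 CPM in DMSO replicates 1, 2 and 3. Only UPHD25 replicate 2 exceeded every DMSO library, and UPHD25 replicate 1 was below DMSO replicates 1 and 3. The mean was 89.3 ± 38.1 CPM after UPHD25 and 66.5 ± 26.9 CPM after DMSO (SD, n = 3 each; two-sided exact permutation test, p = 0.6). The standard error of the log2 fold change was 0.38 and the adjusted p was 0.747 in edgeR's test, and the 95% interval ran from 0.732-fold to 2.46-fold.

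The gene of the decatenating enzyme, top2a, had 51.0, 77.2 and 59.6 CPM in UPHD25 replicates 1, 2 and 3 and 58.9, 44.4 and 72.8 CPM in DMSO replicates 1, 2 and 3. In 2 of the 3 same-numbered pairs the treated library was the lower. It had the smallest log2 fold change of the 6, 0.09 with a standard error of 0.24 (adjusted p = 0.933 in edgeR), with a 95% interval from 0.724-fold to 1.57-fold.

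The mitotic cyclin genes had the lowest levels of the tested genes. Cyclin B1 transcript, ccnb1, had 13.9, 21.5 and 16.0 CPM in UPHD25 replicates 1, 2 and 3, and 13.8, 10.3 and 16.1 CPM in DMSO replicates 1, 2 and 3. Replicates 1 and 3 were almost level between the groups, and replicate 2 was not. Of the 6 genes ccnb1 had the smallest unadjusted p, 0.204 (adjusted p = 0.669 in edgeR), with a log2 fold change of 0.36 (standard error 0.26), a 95% interval from 0.848-fold to 1.93-fold and an exact permutation p of 0.3. Cyclin A2 transcript, ccna2, had 11.8, 11.7 and 15.6 CPM in UPHD25 replicates 1, 2 and 3, and 13.0, 5.33 and 15.9 CPM in DMSO replicates 1, 2 and 3. Here the treated libraries lay inside the range of the DMSO libraries, the log2 fold change came to 0.19 with a standard error of 0.38 (adjusted p = 0.903 in edgeR) and the 95% interval ran from 0.621-fold to 2.095-fold.

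**Figure D1:**
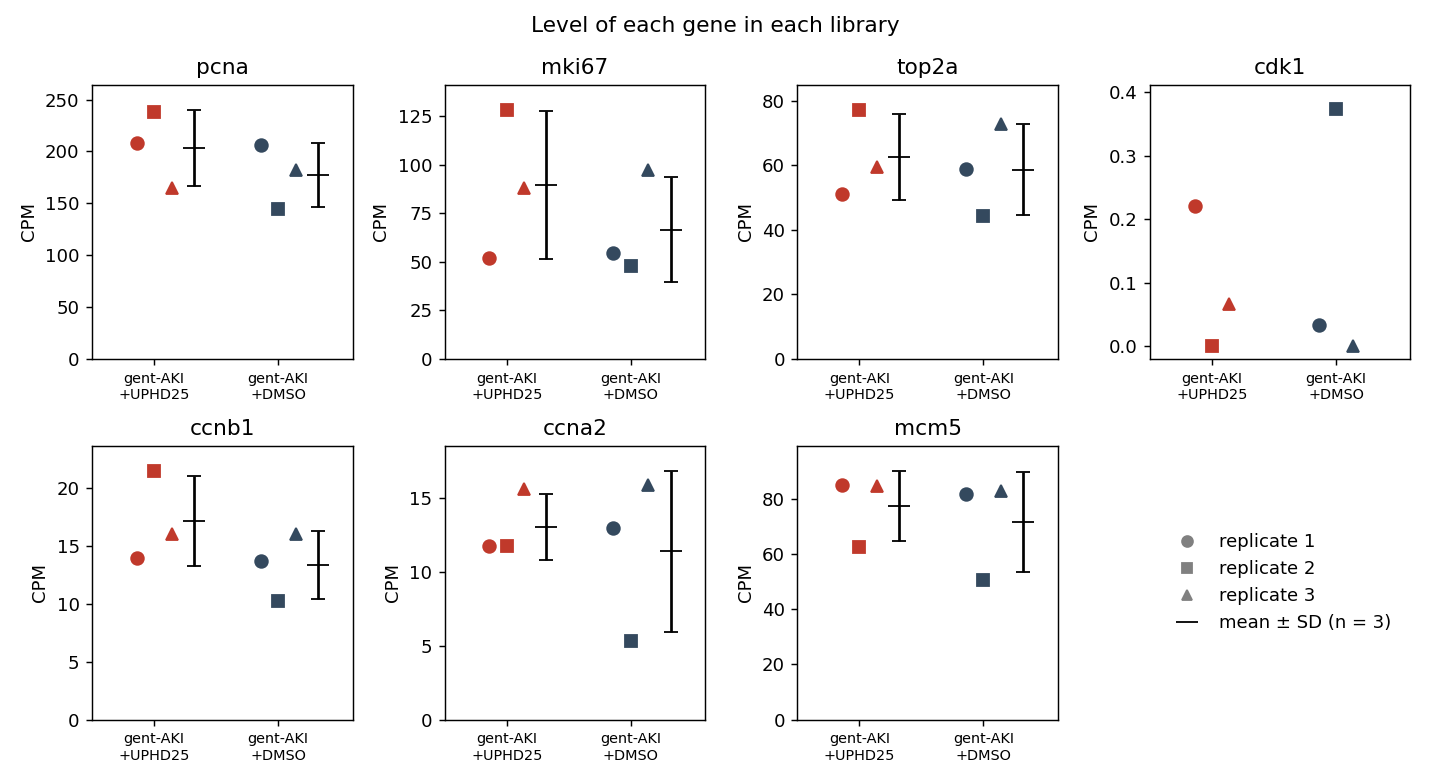
Level of each of the 7 genes in CPM (y axis, one scale per panel) in the 3 gent-AKI+UPHD25 libraries (left, red) and the 3 gent-AKI+DMSO libraries (right, dark blue), with symbols for replicate number and, except for cdk1, mean ± SD (n = 3). DMSO replicate 2 (dark square) is the lowest library in the 6 panels other than cdk1, and UPHD25 replicate 2 (red square) is the highest for pcna, mki67, top2a and ccnb1.

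The kinase gene cdk1 was barely counted. It had 5, 0 and 1 counts in UPHD25 replicates 1, 2 and 3, and 1, 4 and 0 counts in DMSO replicates 1, 2 and 3, or 11 counts among 101069873. Its libraries were at 0 to 0.374 CPM, too few counts for a fold change or for a difference to be detectable. Its partner cyclins, in the same libraries, had 57 to 412 counts. Other genes of the division machinery were listed at 0 in all 6 libraries: cdc6, which loads the helicase, plk1, a mitotic kinase, espl1, the separase that frees sister chromatids, its inhibitor pttg1, and one of the 2 identifiers of cks2. These are 5 of 130 identifiers in the cell cycle lists described below (3.85%), against 19.8% of the whole table, and they were singled out after their values were seen. In the RefSeq annotation of GRCz12tu, a later build than the danRer11 of the counts, the span of cdk1 overlaps that of the gene model LOC141378555. The spans of pcna, mki67 and top2a also overlap another gene there, and those of ccnb1, ccna2 and mcm5 overlap none. Strand was left out of this comparison. Whether shared reads set any of these counts was not tested.

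The library with the least transcript was the same for all 6 tested genes, DMSO replicate 2, which was the lowest library for 17.0% of all tested genes. UPHD25 replicate 2 was the highest library for 4 of the 6, against 19.7% of all tested genes. The same-numbered pairs of pools differed in this respect. Between the replicate 2 libraries, UPHD25 minus DMSO on the log2 CPM scale was 0.72 for pcna, 0.31 for mcm5, 1.42 for mki67, 0.80 for top2a, 1.06 for ccnb1 and 1.12 for ccna2, which is a 1.24-fold to 2.68-fold higher level. Between the replicate 1 libraries the same differences lay between -0.21 for top2a and 0.06 for mcm5. Between the replicate 3 libraries they lay between -0.29 for top2a and 0.03 for mcm5. With library totals in place of TMM, 5 of the 6 genes were above 0 in the replicate 3 pair, as were 12385 of all 17497. The median of the 6 there was 0.19, where that of all genes was 0.30. Relative to the median of all genes, the 6 genes stood at -0.11 in that pair with either scaling. Each pair is 1 library against 1, so a difference within a pair has no replicate check.

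**Figure D2:**
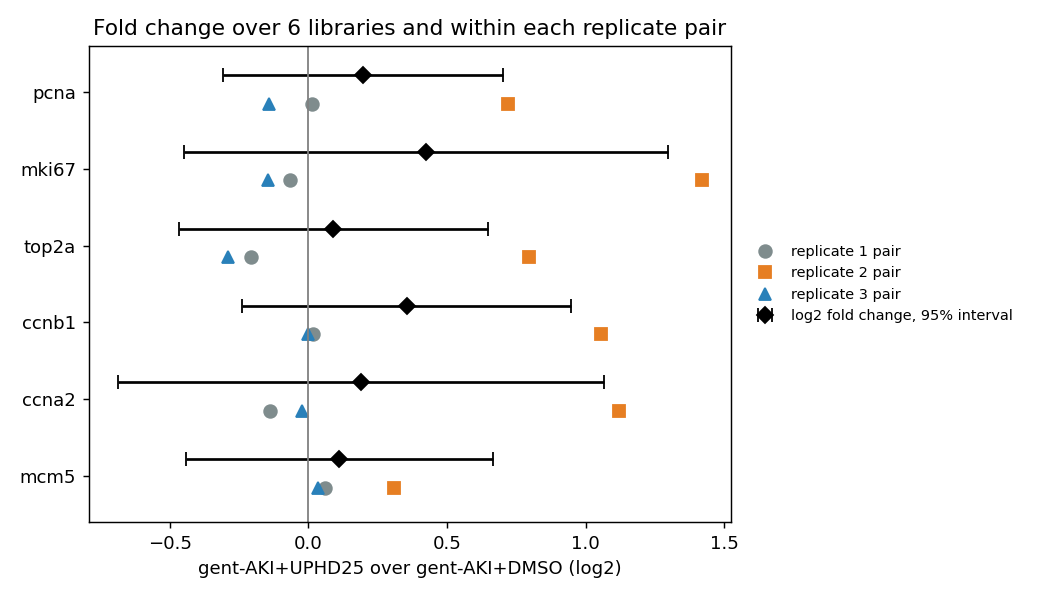
Log2 fold change of gent-AKI+UPHD25 over gent-AKI+DMSO (x axis) for the 6 tested genes (y axis), from edgeR over 6 libraries with a 95% interval derived from its test (black diamonds) and between the 2 libraries of each replicate number (coloured symbols). Every interval includes 0, and the replicate 2 pair (orange squares, 0.31 to 1.42) lies to the right of the other pairs (-0.29 to 0.06) for each gene.

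The direction of the fold changes turned when replicate 2 libraries were left out. Without DMSO replicate 2 the log2 fold change was -0.08 for top2a, -0.15 for ccna2 and -0.093 for mcm5, and without UPHD25 replicate 2 it was -0.09 for top2a. Without both replicate 2 libraries, an alternative chosen after seeing the data, it was -0.078 for pcna, -0.14 for mki67, -0.27 for top2a, -0.012 for ccnb1 and -0.09 for ccna2, and mcm5 alone stayed above 0. In no such fit did a gene have an adjusted p under 0.05.

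The genes differed in how far the pools of one group varied. In gent-AKI+UPHD25 the SD of log2 CPM was 0.65 for mki67 and between 0.24 and 0.32 for the other 5, where the median over all tested genes was 0.39. In gent-AKI+DMSO it was 0.83 for ccna2, larger than for 95.3% of all tested genes, and 0.55 for mki67, with 0.26 for pcna as the lowest and a median over all genes of 0.25.

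Other genes of the cycle were taken from 4 lists of textbook members, chosen with earlier results of these data known. Of their 145 symbols, 127 matched 130 identifiers in the count table, and 111 identifiers passed the filter. At an adjusted threshold of 0.05, called genes numbered 0 by edgeR's quasi-likelihood test and 0 by DESeq2, beside 0% and 3.46% of all genes. An unadjusted p under 0.05 in edgeR was found for 1 of 111 beside the 12.5% of all genes. Groups did not overlap for 4 of the 111 (gmnn, nusap1, cdkn2c and cdkn1ca), with the treated libraries higher in each. Among all tested genes the share without overlap, in either direction, was 17.8%. The median log2 fold change over the 111 was 0.06, beside 0.03 over all tested genes.

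The replication and S phase list, with helicase subunits, origin factors, polymerases and nucleotide synthesis enzymes, had 49 tested identifiers. In edgeR 0 of them had an adjusted p under 0.05 and 0 an unadjusted one, beside 0% and 12.5% of all genes. Of the 49, 26 were above 0 and the median log2 fold change was 0.02. Without DMSO replicate 2 these values were 10 of 49 and -0.15 (0.02 over all genes), and without UPHD25 replicate 1 they were 18 of 49 and -0.06. They rose to 31 of 49 and 0.05 without DMSO replicate 1, and to 33 of 49 and 0.07 without DMSO replicate 3. Geminin, gmnn, which keeps origins from firing again, had the smallest p of the list, with 2.17, 4.04 and 1.88 CPM in UPHD25 replicates 1, 2 and 3 and 1.47, 1.22 and 1.66 CPM in DMSO replicates 1, 2 and 3. All treated libraries were above all DMSO libraries, with a log2 fold change of 0.87 (standard error 0.41, unadjusted p = 0.0649 and adjusted p = 0.441 in edgeR). Its counts were few, 13 to 49 per library. The helicase subunit mcm6, for the identifier that was tested, was at 0.30 and the origin licensing factor cdt1 at 0.36. Below 0 were chaf1a, a histone chaperone subunit, at -0.36, rfc2, a subunit of the clamp loader, at -0.33 and orc4, of the origin recognition complex, at -0.27, and none of these had an adjusted p under 0.644.

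In the G2 and mitosis list, 29 of 38 tested identifiers were above 0 (76.3%, beside 52.7% of all genes), with a median log2 fold change of 0.15. An adjusted p under 0.05 in edgeR was found for 0 and an unadjusted one for 0, beside 0% and 12.5% of all genes. Leaving out UPHD25 replicate 2 gave 16 of 38 and a median of -0.05, and leaving out DMSO replicate 2 gave 20 of 38 and a median of 0.013. With any other single library left out, 26 to 35 of 38 were above 0 and the median was 0.10 to 0.33. The spindle protein gene nusap1 had 12.9, 13.8 and 13.9 CPM in UPHD25 replicates 1, 2 and 3, against 10.8, 7.20 and 11.9 CPM in DMSO replicates 1, 2 and 3. Its groups did not overlap (log2 fold change 0.44, standard error 0.24, adjusted p = 0.550 in edgeR). The spindle checkpoint kinase gene bub1bb was at 0.53 and the lamin gene lmnb1 at 0.22. The lowest of the list was ncaph, a condensin subunit, at -0.67 with a standard error of 0.60. It had few counts, 16, 8 and 11 in UPHD25 replicates 1, 2 and 3 and 38, 3 and 23 in DMSO replicates 1, 2 and 3. Its DMSO replicate 2 value lay at the detection floor of 3 counts. The checkpoint gene bub3 and the kinetochore gene nuf2 were at -0.14 and -0.09.

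Of the 16 symbols listed for the exit from G1, 11 matched and 9 passed the filter. These genes gave 6 of 9 above 0 and a median of 0.08, which was 0.047 without DMSO replicate 2, 0.18 without UPHD25 replicate 1 and 0.28 without DMSO replicate 3. The D-type cyclin gene ccnd1 had 131, 211 and 133 CPM in UPHD25 replicates 1, 2 and 3, and 110, 90.4 and 133 CPM in DMSO replicates 1, 2 and 3, so that UPHD25 replicate 2 again stood highest and DMSO replicate 2 lowest (log2 fold change 0.51, standard error 0.25, adjusted p = 0.467 in edgeR). The Myc family gene mycn was at 0.40 and the E2F factor gene e2f3 at 0.17, while cdk4, the kinase partner of D-type cyclins, e2f1 and e2f2 were between -0.11 and -0.05.

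Of the 23 symbols of cycle inhibitors and p53 targets, 17 matched and 15 passed the filter. This list had a median of 0.27, with 10 of 15 above 0. That median rested partly on single libraries: it was 0.046 with 8 of 15 above 0 without UPHD25 replicate 1, and 0.54 with 10 of 15 without DMSO replicate 1. Here lay the gene with an unadjusted p under 0.05, cdkn2c, an inhibitor of the G1 kinases, at 2.61, 2.31 and 3.16 CPM in UPHD25 replicates 1, 2 and 3 and 1.74, 0.94 and 1.33 CPM in DMSO replicates 1, 2 and 3. All treated libraries were higher and the log2 fold change was 0.98 (standard error 0.37, unadjusted p = 0.0278), but its adjusted p was 0.317 in edgeR. Its counts were few, 10 to 59 per library. For cdkn1ca, of the p57 type of inhibitors, the treated libraries had 14.3, 17.5 and 11.9 CPM and the DMSO libraries 10.5, 7.20 and 11.7 CPM in replicates 1, 2 and 3, again without overlap (log2 fold change 0.57, adjusted p = 0.439 in edgeR). Its paralog cdkn1cb was at 0.52, and ccng2, the antiproliferative btg1 and the retinoblastoma gene rb1 were at -0.26, -0.24 and -0.14.

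**Figure D3:**
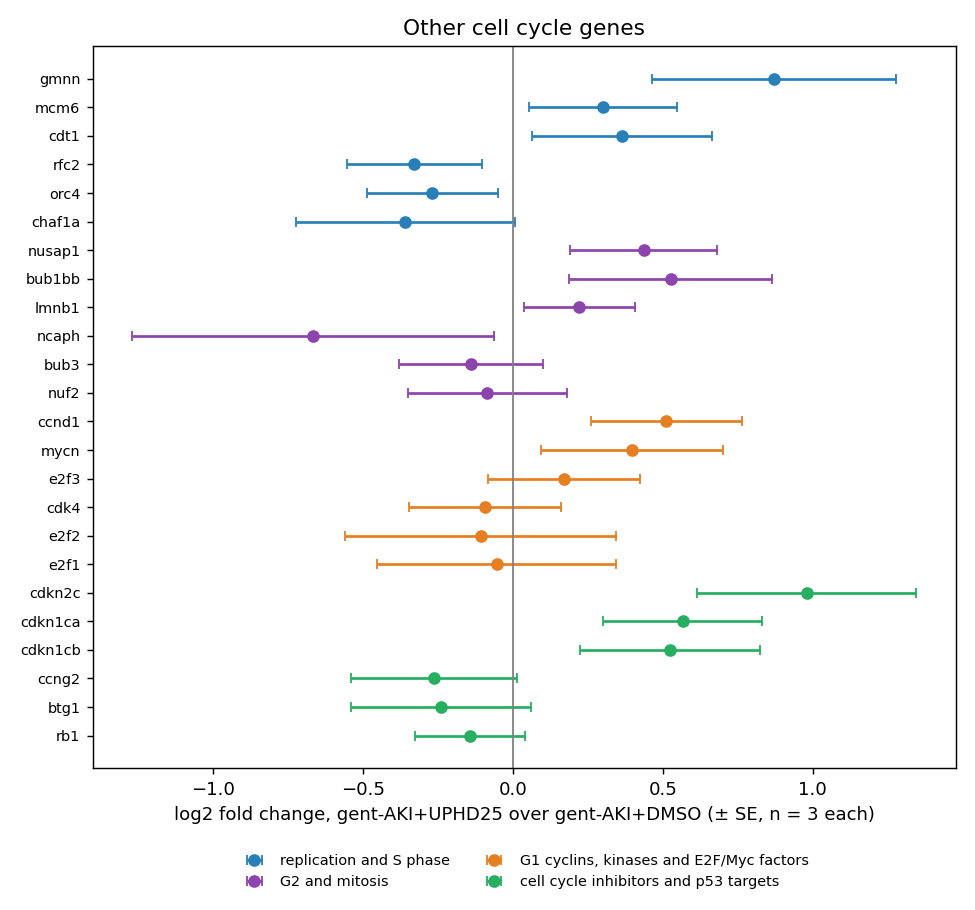
Log2 fold change of gent-AKI+UPHD25 over gent-AKI+DMSO (x axis, ± standard error, n = 3 each) for the genes named from the 4 cell cycle lists (y axis), up to 3 with the smallest p on either side of 0 in each list. The values run from -0.67 for ncaph, which had 3 to 38 counts per library, to 0.98 for cdkn2c, which had 10 to 59. None has an adjusted p under 0.317.

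The difference between pairs of pools seen in the 6 genes was also present in the lists. In the replicate 2 pair, 37 of 38 G2 and mitosis genes and 42 of 49 replication genes were higher in the treated library, with median differences of 0.85 and 0.38 on the log2 scale, where 51.1% of all tested genes were higher and their median was 0.02. In the replicate 3 pair, 5 of 38 and 13 of 49 were higher, with medians of -0.31 and -0.16, beside 52.3% of all genes. In the replicate 1 pair, 13 of 38 and 16 of 49 were higher, with medians of -0.06 and -0.10. The list of inhibitors and p53 targets differed less between pairs, with medians of 0.07, 0.28 and 0.06 in the replicate 1, 2 and 3 pairs. DMSO replicate 2 was the lowest library for 28 of the 38 G2 and mitosis genes and 35 of the 49 replication genes. It was the lowest for 4 of the 15 inhibitors and p53 targets. How the pairs stand to 0 depends on scaling: with library totals in place of TMM the median of all genes in the replicate 3 pair was 0.30. There, 19 of 38 G2 and mitosis genes and 28 of 49 replication genes were above 0, beside 12385 of all 17497. Relative to the median of all genes, the G2 and mitosis list stood at -0.07, 0.83 and -0.34 in the replicate 1, 2 and 3 pairs with either scaling. The genes of a list were measured in the same libraries and are not independent of one another.

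**Figure D4:**
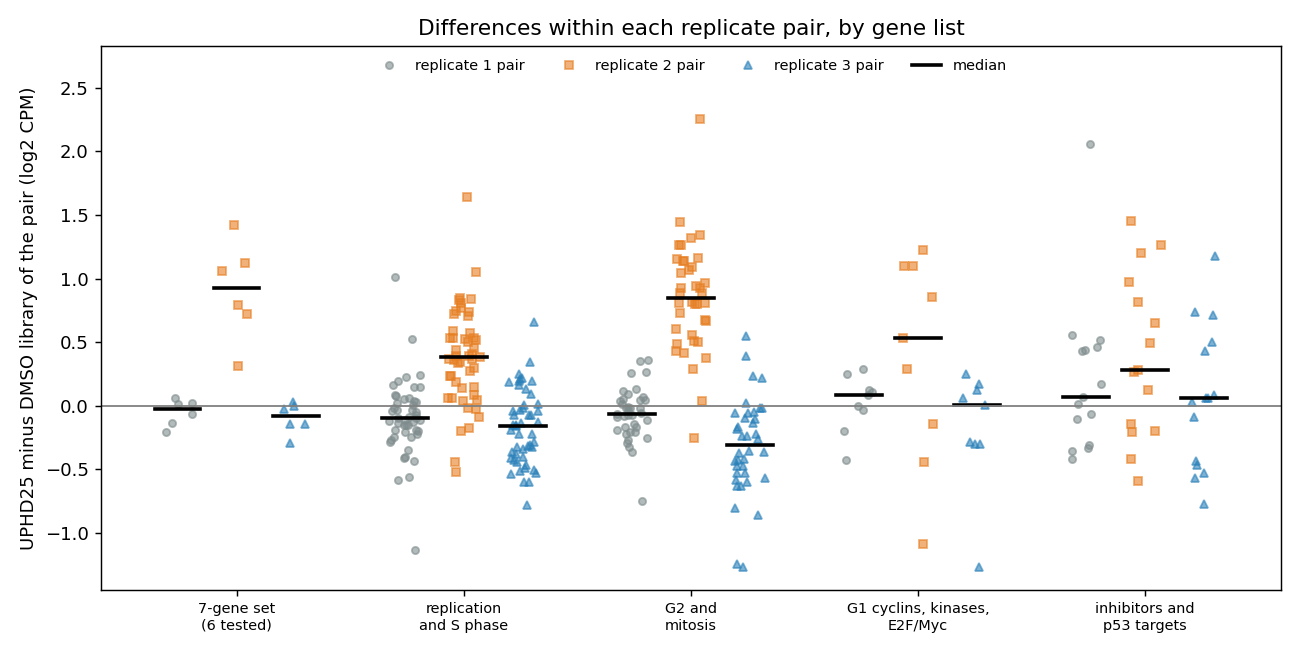
Difference in log2 CPM between the gent-AKI+UPHD25 and the gent-AKI+DMSO library of the same replicate number (y axis) for the 6 tested genes and the tested genes of the 4 lists (x axis), 1 point per gene and pair, with the median as a bar. In the G2 and mitosis list the median is 0.85 in the replicate 2 pair, -0.06 in the replicate 1 pair and -0.31 in the replicate 3 pair.

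Levels of marker genes in the same libraries were set beside these values. The sums cover only markers whose symbols matched, from 3 of 6 for exocrine pancreas to 6 of 6 for liver. Several proximal tubule markers were lowest in the replicate 2 libraries of both groups: slc5a12, a sodium-coupled transporter, had 27.7, 3.17 and 25.7 CPM in UPHD25 replicates 1, 2 and 3 and 29.4, 4.40 and 13.7 CPM in DMSO replicates 1, 2 and 3. The summed level of the 9 proximal tubule identifiers was 282 CPM in UPHD25 replicate 2 and 332 CPM in DMSO replicate 2, the lowest of each group. A dab2 identifier in that sum, ENSDARG00000053091, went the other way. It was highest of each group in replicate 2, at 147 CPM after UPHD25 and 185 CPM after DMSO, and made up much of both sums. Of the 6 tested cell cycle genes, pcna, mki67, top2a and ccnb1 were at their highest in UPHD25 replicate 2. In that library mcm5 was at its lowest among the treated libraries, and ccna2 was level with UPHD25 replicate 1 (11.7 and 11.8 CPM). All 6 were at their lowest in DMSO replicate 2. Leukocyte markers, the common leukocyte gene ptprc and macrophage genes among them, summed to 88.1 to 212 CPM after UPHD25 and 297 to 391 CPM after DMSO, with lyz listed at 0. In edgeR 6 of their 8 tested identifiers had an unadjusted p under 0.05 (12.5% of all genes), all lower after UPHD25, and 0 an adjusted p under 0.05. By DESeq2, 3 of the 8 had an adjusted p under 0.05, beside 3.46% of all genes with one. Several of the 8 identifiers share the symbol mfap4. Of these, ENSDARG00000090557 was at a log2 fold change of 0.07 and ENSDARG00000089667 at -0.67, neither at an unadjusted p under 0.05 in edgeR. Neural markers summed to 120, 311 and 364 CPM in UPHD25 replicates 1, 2 and 3 and 129 to 147 CPM after DMSO, so UPHD25 replicate 1 lay below every DMSO library. Of the 4 tested, 2 were higher in every treated library and at an unadjusted p under 0.05 in edgeR, beside 17.8% without overlap and 12.5% of all genes. These were sox2 and sox3, genes of neural progenitors, and the groups of the others overlapped. An adjusted p under 0.05 in DESeq2 was found for sox2 (0.0461), beside 3.46% of all genes. Epidermis markers summed to 142, 170 and 589 CPM in UPHD25 replicates 1, 2 and 3 and to 152 to 223 CPM after DMSO, so that UPHD25 replicate 3, the library with the TMM factor of 1.21, stood apart. Erythroid markers summed to 52.5 to 160 CPM after UPHD25 and 148 to 230 CPM after DMSO, with alas2 and gata1a listed at 0. Liver markers summed to 9753, 5639 and 4108 CPM in UPHD25 replicates 1, 2 and 3, against 9059, 13897 and 8872 CPM after DMSO. In the same order, exocrine pancreas markers were at 4449, 1350 and 1764 CPM, against 5458, 7321 and 4616 CPM. Both sums were highest in DMSO replicate 2, and the pancreas sum was lowest in UPHD25 replicate 2. The skeletal muscle sum differed, at 4573, 8492 and 6253 CPM in UPHD25 replicates 1, 2 and 3 and 10722, 10500 and 11275 CPM in DMSO replicates 1, 2 and 3. UPHD25 replicate 2 was thus the highest treated library and DMSO replicate 2 the lowest DMSO library. Of its 4 tested identifiers, 2 had an unadjusted p under 0.05 in edgeR (12.5% of all genes). An adjusted p under 0.05 in DESeq2 was found for 1 (3.46% of all genes). All 4 had a log2 fold change below 0. The part of these cell types in the levels of the cell cycle genes was not tested.

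The profile of the 6 genes over the libraries, taken as the mean of their centred log2 CPM, was -0.07, 0.31 and 0.14 in UPHD25 replicates 1, 2 and 3 and -0.02, -0.59 and 0.23 in DMSO replicates 1, 2 and 3. Each gene was set against the mean of the other 5. Pearson's r over the 6 libraries was 0.90 for ccnb1, 0.89 for top2a, 0.79 for ccna2, 0.70 for mki67, 0.59 for pcna and 0.48 for mcm5. Most of the 6 genes belong to late S phase and mitosis, so the mean of the others is weighted towards such genes. The lower r of pcna and mcm5 cannot be told apart from that make-up of the set. The 5 tested genes outside the set with the profile most like it were tmem67, ttk, psmc3ip, fap and hmgn2, with r between 0.99 and 1.00 over 6 libraries. Among these, ttk, a mitotic checkpoint kinase gene, is also in the G2 and mitosis list and had 13.5, 20.3 and 17.5 CPM in UPHD25 replicates 1, 2 and 3 and 15.7, 8.05 and 17.6 CPM in DMSO replicates 1, 2 and 3. An r of at least 0.9 with the profile was reached by 16 of the 111 list genes (14.4%) and by 143 of the 17491 tested genes outside the set (0.818%). These correlations share libraries and depth and are given as a description.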

How the data were processed

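The authors aligned paired-end reads of stranded mRNA libraries with HISAT2 2.1.0 to danRer11 and deposited raw read counts per Ensembl gene from featureCounts, 1 column per library. The strand option, annotation release and handling of multi-mapped reads are not given in the sources used here. The 6 columns were assigned by their labels, and 0 columns were left unassigned. Symbols came from a table that pairs 29201 of the 32520 identifiers with names, matched without regard to case. List symbols that this table does not hold were left out.

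Counts were tested with edgeR 4.0.16 (R 4.3.3), after TMM scaling and filterByExpr (minimum count 10, minimum total 15), by the two-sided quasi-likelihood test with group as the only term and Benjamini-Hochberg adjustment over 17497 genes at a threshold of 0.05. The quasi-likelihood test gives no standard error, so it was taken as the absolute log2 fold change over the square root of the F statistic. The 95% intervals used a t quantile on the test's total degrees of freedom. Log2 CPM used a prior count of 2. CPM of single genes were compared by exact permutation. The floor covers counting error only, and the intervals cover the spread between these pools. Alternatives were upper quartile scaling, scaling to library totals or to DESeq2's size factors, testing by DESeq2 1.42.0 or by edgeR's likelihood ratio test, no filter, a filter of 10 or more counts in each library, the replicate block, and leaving out each library in turn. Simulated counts with known fold changes were used to check both tools.

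Same-numbered libraries deviated from their group means together, with correlations across all genes of 0.49, 0.29 and 0.21 for replicates 1, 2 and 3, so the numbers, which come from the sample titles, were treated as pairs in the replicate block. The members, the gene lists and the tests were chosen with earlier results of these data known. The named genes are the members, up to 3 genes with the smallest p in each direction in each list, and the 5 genes closest to the members' profile. Sequences were not used here.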

Additional observations from a re-analysis of the deposited data

How the results depend on the processing

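The number of the 6 tested genes with an adjusted p under 0.05 was 0 in each of the 16 alternatives, the replicate block in edgeR (0) and in DESeq2 (0) among them, and so was the number of list genes. At that threshold edgeR's main fit called 0% of all genes, and DESeq2's Wald test 3.46% of those it gave an adjusted p. A count of 0 therefore does not set these genes apart from the rest. List genes at an unadjusted p under 0.05 numbered 0 to 2 except without UPHD25 replicate 3, where they were 8. In that fit, 1293 of all 17689 tested genes were higher and 603 were lower at the same threshold. With the replicate block the log2 fold changes were 0.19 for pcna, 0.39 for mki67, 0.09 for top2a, 0.35 for ccnb1, 0.29 for ccna2 and 0.13 for mcm5, and the block changed no call. Over its alternatives the lowest adjusted p of any member was 0.378, for mki67 without UPHD25 replicate 1. Direction held in 87 of 96 values and turned in 9, each time without a replicate 2 library. With libraries left out, singly or both replicate 2 libraries together, the log2 fold change ran from -0.078 to 0.33 for pcna, -0.14 to 0.80 for mki67, -0.27 to 0.27 for top2a, -0.012 to 0.50 for ccnb1, -0.15 to 0.49 for ccna2 and -0.093 to 0.24 for mcm5. Library totals moved the median of all genes to 0.15 and put 36 of 38 G2 and mitosis genes and 36 of 49 replication genes above 0, beside 11704 of all 17497. With DESeq2 size factors these numbers were 27, 24 and 8789. Without both replicate 2 libraries they were 6 of 39, 12 of 51 and 9442 of 18564. Little can be said of cdk1, which had no more than 5 counts in any library, and the cause of its low counts was not tested.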
